A study of Canis lupus familiaris with 124 samples.

Results

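TCC1506 and TCC0840 are canine cell lines that the labels class as transitional cell carcinoma (TCC), a tumor of the urothelium that lines the bladder, the urethra and the prostatic ducts. Their comparison rests on 5 RNA sequencing libraries, 3 of TCC1506 and 2 of TCC0840, chosen by the line named in the labels from 31 libraries of 8 cell lines and 9 tissues. TCC1506 (TihoDUrtTCC1506) was established from the bladder tumor B7 of a female Labrador Retriever aged 10 years, and its replicates 1, 2 and 3 were taken at passages 98, 106 and 107. TCC0840 (TihoDProCarc/TCC0840) was raised from leftover cells of a fine needle aspirate of the prostate of a neutered male Pitbull Terrier aged 10 years, and its replicates 1 and 2 were taken at passages 350 and 352. No tissue of that tumor was analysed here, and the study gives its diagnosis as made by cytology of the aspirated cells. Both lines grew untreated in Medium 199 with fetal calf serum, and RNA was isolated from frozen cell pellets. Each line stands for 1 dog, so that line, dog, sex, breed, organ and passage cannot be told apart, and a p-value measures only the spread between flasks of a line.

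Urothelium and prostate are layered epithelia. Basal cells rest on the basement membrane, carry the transcription factor TP63 and bind laminin through integrins. Cells nearer to the lumen have tight junctions and secretory proteins, among them the membrane protease TMPRSS2 and the surface protein PSCA. Carcinoma cells in culture may keep either program, and may also make matrix proteins that are otherwise made by fibroblasts.

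The libraries of TCC1506 held 17042570, 16945642 and 19231681 expected counts, and those of TCC0840 held 15848441 and 17652237, so that depth differed little between the lines. Levels are given per library as CPM, counts relative to the library total, scaled by TMM, a normalization that assumes most genes do not differ, and levels in CPM are compared only within a gene because they are not corrected for length. Epithelial markers were present in every library. All 7 of them (EPCAM, CLDN7, OCLN, JUP, PKP3, F11R and OVOL2) had counts, and their sum was between 2249 and 3011 CPM in TCC1506 and 1631 and 2097 CPM in TCC0840. The sum mostly follows the genes with most counts and gives no direction for the set. By edgeR, 2 were higher in TCC1506 and 4 in TCC0840 at an unadjusted p under 0.05, with a median log2 fold change of -0.64.

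The lines differed in a large share of their genes. Of 12952 genes tested, 3176 (24.5%) passed both thresholds of the edgeR test (adjusted p no higher than 0.01, change no smaller than 2-fold), 1760 of them higher in TCC1506 (13.6% of the genes tested) and 1416 higher in TCC0840 (10.9%). The change was at least 16-fold for 654 of the former and 314 of the latter. In TCC0840, 226 of the genes called higher in TCC1506 had 0 counts in both libraries. In TCC1506, 69 of the genes called higher in TCC0840 had 0 counts in all 3. These numbers rest on unlike numbers of libraries and are not compared. The median log2 fold change of all genes tested was 0.04. The count filter kept genes with at least 10 counts in all libraries of either line. A gene at or near 0 in a line could thus be tested only through the other line. The direction of such genes, which occur in many of the lists below, follows in part from the filter. A gene symbol was at hand for 922 of the genes tested, of which 233 (25.3%) were called, 144 higher in TCC1506 and 89 higher in TCC0840, against 24.5% of the 12030 genes without one.

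**Figure D1:**
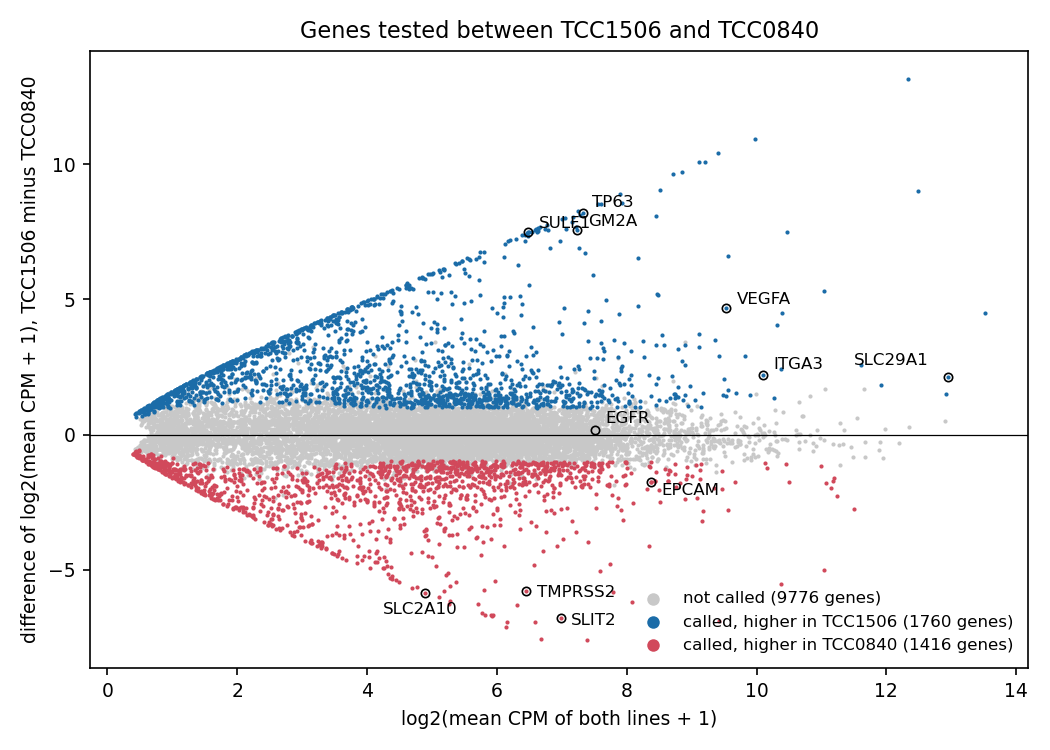
Each point is 1 of the 12952 genes tested, with the mean level of both lines on the x axis and the difference of the levels on the y axis, both in log2(CPM + 1). Blue and red points are the 1760 genes called higher in TCC1506 and the 1416 called higher in TCC0840. Circled genes are named, with TP63, SULF1 and GM2A near the upper edge, SLIT2 and TMPRSS2 near the lower edge and EGFR close to 0.

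TP63, the transcription factor of basal epithelial cells, was among the called genes with large differences. Its level was 492, 156 and 314 CPM in the replicates of TCC1506 and 0.125 and 0.104 CPM in those of TCC0840, where each library held 2 counts. The level in TCC1506 varied 3.14-fold between libraries, and the lowest of them was still far above both libraries of TCC0840. By summed counts it was 2843-fold higher in TCC1506, with a 95% exact interval from 1110.1 to 10435 that covers counting error only (adjusted p = 1.8e-05). CDH3, the P-cadherin of basal cells, measured 313, 427 and 495 CPM against 41.0 and 29.3 CPM (log2 fold change 3.55 ± 0.31 SE, adjusted p = 6.4e-05). SNAI2, a transcription factor linked to basal cells and to epithelial-mesenchymal transition, measured 107, 110.1 and 145 CPM against 13.4 and 9.82 CPM (log2 fold change 3.38 ± 0.28 SE, adjusted p = 4.4e-05).

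These genes belong to a list of basal and stratified epithelium with 16 members, all of them tested. Called higher in TCC1506 were 7, against 13.6% of all genes tested, with a median log2 fold change of 0.88 over the list. None was called higher in TCC0840 by edgeR or by DESeq2. Still, 3 members whose levels are not given here leaned that way at an unadjusted p under 0.05. PERP, a desmosomal protein and target of the p53 family, was 5.44-fold higher in TCC1506 (log2 fold change 2.44 ± 0.27 SE), with 2709.6, 1952 and 2059 CPM against 386 and 437 CPM. TGM1, the transglutaminase of cornifying cells, was at 8.56, 7.87 and 24.2 CPM against 0.627 and 1.82 CPM, with replicate 3 of TCC1506 well above the other two. LAMA3, a chain of the laminin under basal cells, measured 732, 1081 and 1398 CPM against 484 and 319 CPM (log2 fold change 1.42 ± 0.33 SE, adjusted p = 0.0092). That call was lost in 4 of the 5 fits without 1 library, and the adjusted p then reached 0.086. TGM1 kept its call in 3 of these 5 fits and lost it when either library of TCC0840 was left out, with an adjusted p of up to 0.044.

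Other members of the basal list did not pass. EGFR, the receptor of epidermal growth factor, was at 251, 109 and 219 CPM in TCC1506 and at 172 and 167 CPM in TCC0840, so that TCC0840 lay within the range of TCC1506 (log2 fold change 0.19 ± 0.33 SE, adjusted p = 0.68). TRIM36, a ubiquitin ligase, also overlapped, with 18.2, 11.0 and 9.16 CPM against 9.84 and 11.9 CPM.

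Luminal and prostate markers differed in both directions. Of the 21 members, 13 were tested, 2 were called higher in TCC1506 and 3 higher in TCC0840, with a median log2 fold change of 0.31. Of all genes tested, 13.6% and 10.9% were called in these directions, so that the share higher in TCC1506 was near that of all genes. TMPRSS2 measured 2.62, 2.32 and 1.51 CPM in TCC1506 and 123 and 219 CPM in TCC0840, which is 79.7-fold higher (log2 fold change -6.31 ± 0.36 SE, adjusted p = 8.6e-06). PSCA, the prostate stem cell antigen that urothelium makes as well, had 3, 1 and 0 counts in the libraries of TCC1506 and 424 and 1016 counts in those of TCC0840. By summed counts it was 526-fold higher in TCC0840 (95% exact interval 205 to 1935).

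MUC13, a membrane mucin of intestinal and other epithelia, stands in the same list and differed in the opposite direction, with 384, 138 and 276 CPM in TCC1506 and 0.313 and 0.416 CPM in TCC0840 (log2 fold change 9.47 ± 0.63 SE). Also higher in TCC1506 was TPD52, with 76.7, 81.3 and 83.9 CPM against 27.4 and 31.1 CPM, although not without replicate 1 of TCC0840 (adjusted p = 0.014). HOXB13, a homeobox gene of the prostate and lower urinary tract, was at 20.1, 18.1 and 23.6 CPM against 11.9 and 13.9 CPM (adjusted p = 0.066). The prostate secretory gene KLK2 had 0 counts in all 5 libraries.

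**Figure D2:**
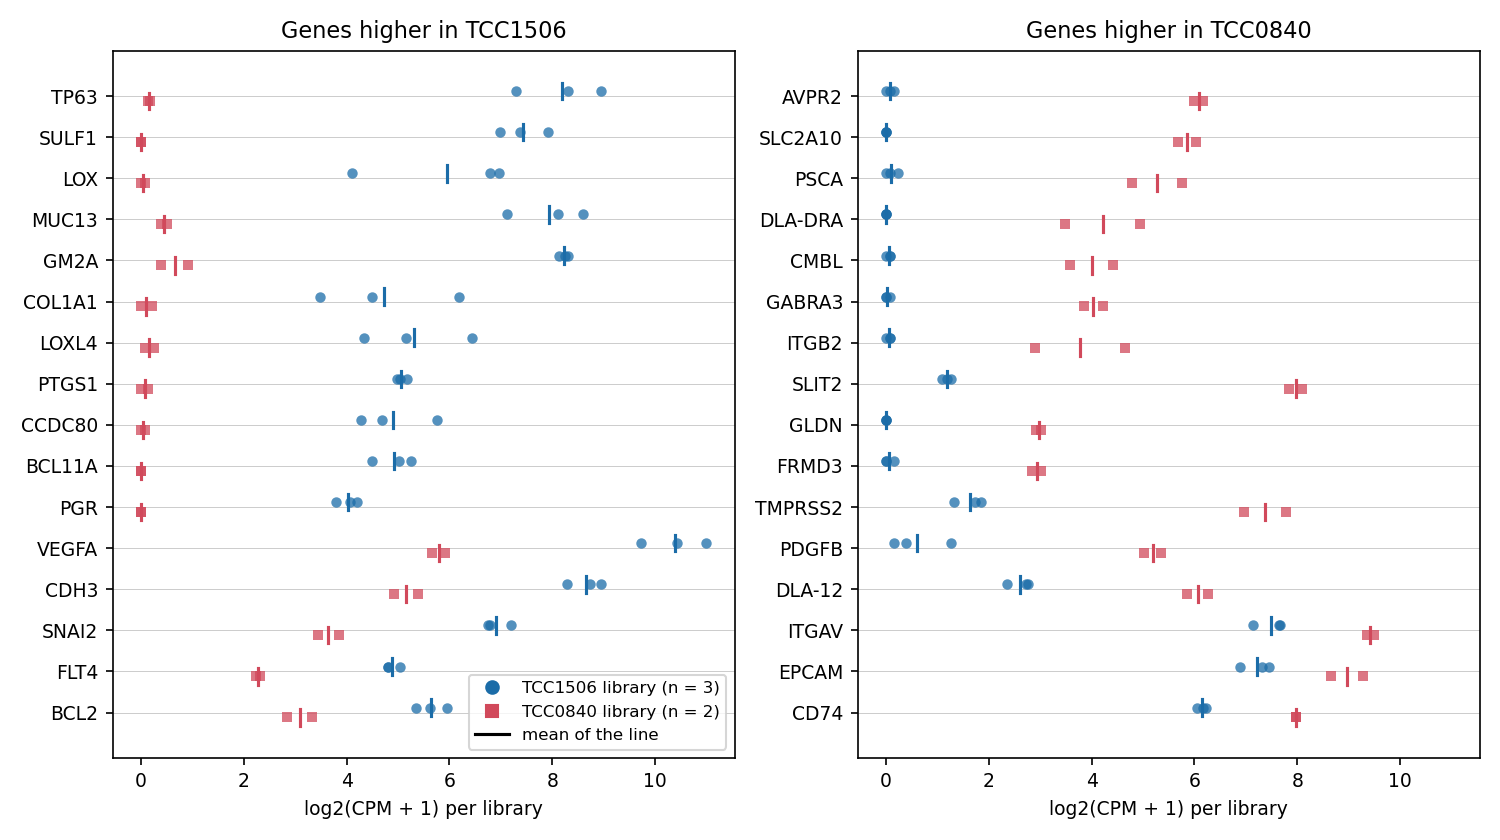
Each row is a gene and each point 1 library, on a log2(CPM + 1) axis, with blue circles for the 3 libraries of TCC1506, red squares for the 2 of TCC0840 and a bar at the mean of each line. The left panel holds called genes higher in TCC1506 and the right panel called genes higher in TCC0840. The libraries of both lines do not overlap in any called gene, as they do not in 64.0% of all genes tested, while LOX, COL1A1 and LOXL4 spread widely within TCC1506.

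Junction genes were called in both directions, in a share near that of all genes tested (24.5%). Of 18 members, 17 were tested, 4 were called higher in TCC1506 and 1, EPCAM, higher in TCC0840, with a median log2 fold change of 0.79. EPCAM, an adhesion protein of simple epithelia, was at 159, 175 and 118 CPM in TCC1506 and at 405 and 617 CPM in TCC0840 (3.39-fold, log2 fold change -1.76 ± 0.27 SE). Without replicate 2 of TCC0840 its adjusted p was 0.015. CLDN7, a claudin of tight junctions, was at 72.4, 96.0 and 72.2 CPM against 116 and 134 CPM, a difference that missed the threshold (adjusted p = 0.044). OCLN, another tight junction protein, was at 89.4, 96.8 and 86.3 CPM against 82.2 and 89.5 CPM, and the libraries of the lines overlapped (log2 fold change 0.08 ± 0.19 SE, adjusted p = 0.76). NECTIN3, an adhesion molecule of adherens junctions, had 343, 354 and 420 counts in TCC1506 and 0 and 4 in TCC0840. JUP, the plakoglobin of desmosomes, was 2.54-fold higher in TCC1506, but passed in only 2 of the 5 fits without 1 library, with an adjusted p of up to 0.037.

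Integrins, the receptors that bind cells to matrix, had 2 of 10 tested members called higher in each line, against 13.6% and 10.9% of all genes tested, and a median log2 fold change of -0.34. ITGA3, which pairs with the beta 1 chain to bind laminin, measured 1343, 2154 and 1913 CPM in TCC1506 and 451 and 335 CPM in TCC0840 (4.59-fold), and missed the threshold without replicate 2 of TCC0840 (adjusted p = 0.011). ITGA5, the alpha chain of a fibronectin receptor, measured 36.1, 74.5 and 72.5 CPM against 1.69 and 3.22 CPM, which is 24.8-fold higher (log2 fold change 4.62 ± 0.46 SE). ITGAV, the alpha chain of vitronectin receptors, was 3.80-fold higher in TCC0840, at 715 and 653 CPM against 198, 139 and 202 CPM. ITGB2, the beta chain of leukocyte integrins, had 103 and 465 counts in TCC0840 and 0, 1 and 1 in TCC1506.

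The leukocyte markers as a whole were low. Of 17 markers, between 12 and 15 were at 0 in each library, and their sum was between 1.01 and 1.22 CPM in TCC1506 and was 6.64 and 24.4 CPM in TCC0840, most of it from ITGB2. CSF1R, TYROBP, C1QB and C1QC, which mark macrophages, had 0 counts in all 5 libraries, and LAPTM5 was at 0.873, 0.854 and 0.782 CPM in TCC1506 with 0 and 1 counts in TCC0840. LAPTM5 was called by edgeR (adjusted p = 0.0021), but not by DESeq2 (adjusted p = 0.010) or without either library of TCC0840.

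The 3 tested genes of antigen presentation were called higher in TCC0840. They belong to the MHC list of 4 members, of which DLA-79 was under the count filter. Of all genes tested, 10.9% were called in that direction, and the median log2 fold change of the list was -3.68. DLA-DRA passed the filter through TCC0840 alone, so that its direction follows in part from the filter. None passed in the other direction by edgeR or DESeq2, with 0 at an unadjusted p under 0.05. DLA-DRA, the alpha chain of the class II molecule DR, had 0 counts in each library of TCC1506 and 29.8 and 10.2 CPM in TCC0840, at least 343-fold higher against a floor of 3 counts over the libraries of TCC1506. CD74, the invariant chain that escorts class II molecules, was at 73.6, 65.1 and 70.4 CPM in TCC1506 and at 251 and 252 CPM in TCC0840 (log2 fold change -1.85 ± 0.19 SE). DLA-12, a class I gene, was at 5.59, 4.15 and 5.75 CPM against 57.1 and 75.7 CPM, and its value is uncertain because near-identical class I genes can share its reads.

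Several collagens were expressed in TCC1506 and were at or near 0 in TCC0840. Of 15 collagen genes, 7 passed the count filter and 5 were called, all higher in TCC1506, against 13.6% of all genes tested. None was called higher in TCC0840 by edgeR or DESeq2, and none leaned that way at an unadjusted p under 0.05. The median log2 fold change of the tested members was 5.59. The 5 called members passed the filter through TCC1506 alone, so that their direction and this median follow in part from the filter. COL1A1, the alpha 1 chain of type I collagen, was at 10.2, 21.5 and 71.8 CPM, a wide range, against 0 and 3 counts in TCC0840 (ratio of summed counts 413, 95% exact interval 141 to 2006). COL3A1 was at 40.2, 43.4 and 93.4 CPM against 0.313 and 0.832 CPM (log2 fold change 6.63 ± 0.61 SE). COL16A1 was at 5.24, 3.72 and 4.19 CPM with 0 and 3 counts in TCC0840 (ratio of summed counts 51.5, 95% exact interval 17.4 to 252). COL4A1, of basement membranes, was at 12.7, 57.1 and 59.1 CPM against 0.564 and 1.25 CPM. COL5A3 was highest in replicate 1, at 33.9 CPM against 7.74 and 4.81 CPM in the other replicates of TCC1506, and had 0 and 1 counts in TCC0840. COL1A1, COL5A3 and COL4A1 each lost their call when either library of TCC0840 was left out, with an adjusted p of up to 0.016, 0.024 and 0.015, which left COL3A1 and COL16A1 called.

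Several other defining genes of fibroblasts were at or near 0 in both lines, though not FBLN1, which was called higher in TCC0840. COL1A2, which joins COL1A1 in the type I trimer, had 1, 0 and 2 counts in TCC1506 and 4 and 5 in TCC0840, DCN had at most 2 counts and POSTN at most 1 in any library. The 8 fibroblast markers summed to 55.9, 70.3 and 170.8 CPM in TCC1506 and to 19.2 and 37.3 CPM in TCC0840, with between 2 and 4 of them at 0 in each library. FBLN1 gave most of the sum in TCC0840, at 17.4 and 34.8 CPM.

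Matrix proteins other than collagens had 12 of 30 tested members called higher in TCC1506 and 3 higher in TCC0840. The shares of all genes tested were 13.6% and 10.9%, and the median log2 fold change of the list was 0.76. SULF1, LOX, LOXL4 and LTBP2 passed the count filter through TCC1506 alone, and MFAP2 and LOXL2 through TCC0840 alone. Their directions follow in part from the filter. SULF1, a sulfatase that trims heparan sulfate, was at 125, 165 and 241 CPM in TCC1506 and had 0 counts in both libraries of TCC0840, at least 2079.9-fold higher against the floor. LOX, the lysyl oxidase that crosslinks collagen, was at 16.2, 123 and 109.6 CPM, with 1 and 0 counts in TCC0840 (ratio of summed counts 2913, 95% exact interval 523 to 115078). LOXL4, of the same family, ran the other way across the replicates of TCC1506, at 85.2, 34.6 and 19.2 CPM, with 3 and 1 counts in TCC0840. LTBP2, which binds latent TGF-beta and microfibrils, was at 7.57, 5.00 and 13.7 CPM with 1 count in each library of TCC0840. The 3 genes higher in TCC0840 were FBLN1 (17.4 and 34.8 CPM against 4.13, 2.99 and 4.64 CPM), the microfibril protein MFAP2 (3.07 and 3.27 CPM against 0.175, 0.122 and 0.335 CPM) and LOXL2 (1.32 and 4.26 CPM against 0.233, 0.244 and 0.112 CPM). Without replicate 2 of TCC0840, LOX had an adjusted p of 0.012 and LOXL2 one of 0.022.

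**Figure D3:**
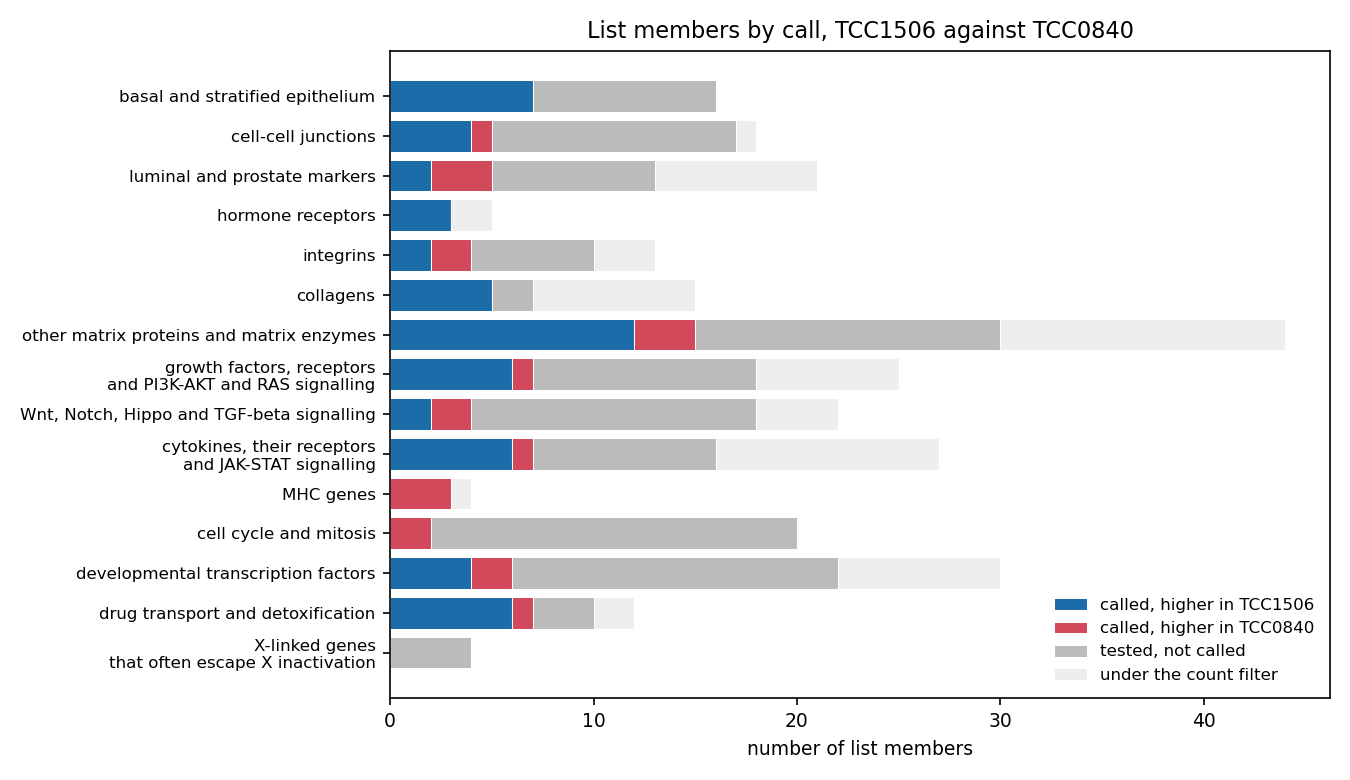
Bars give the members of 15 gene lists by call, as numbers of genes, in blue for higher in TCC1506, in red for higher in TCC0840, in grey for tested but not called and in light grey for members under the count filter. Basal genes, collagens and hormone receptors were called higher in TCC1506 alone, MHC genes higher in TCC0840 alone, and 18 of 20 cell cycle genes were not called.

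Steroid and prolactin receptors were found in TCC1506. Of 5 members, 3 passed the count filter. All 3 were called higher in that line, against 13.6% of all genes tested, with a median log2 fold change of 4.13. These 3 passed the filter through TCC1506 alone, so that their direction follows in part from the filter. PGR, the progesterone receptor, was at 12.8, 15.8 and 17.4 CPM, with little spread, and at 0 counts in both libraries of TCC0840, at least 179.8-fold higher against the floor (adjusted p = 3.4e-05). ESR1, the estrogen receptor alpha, had a lower level per length in TCC1506 than PGR, at 0.477 ± 0.443 against 7.04 ± 0.626 TPM (SD, n = 3), with 71, 10 and 28 counts in TCC1506 and 2 in each library of TCC0840 (adjusted p = 0.0099). PRLR, the prolactin receptor, had 41, 21 and 13 counts against 1 and 4 counts (adjusted p = 0.0088). ESR1 lost its call without either library of TCC0840 and PRLR in 4 of the 5 fits without 1 library, with an adjusted p of up to 0.087 and 0.080. ESR2, the estrogen receptor beta, had 0 counts in all 5 libraries.

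VEGFA, the growth factor of blood vessels, was at 850.2, 1380.4 and 2043 CPM in TCC1506 and at 59.0 and 49.8 CPM in TCC0840. It was 26.2-fold higher in TCC1506 (log2 fold change 4.71 ± 0.43 SE, adjusted p = 7.7e-05), with the libraries of TCC1506 2.40-fold apart. FLT4, the receptor of VEGFC and VEGFD, was at 31.8, 26.8 and 27.1 CPM against 4.01 and 3.69 CPM. The endothelial markers VWF, KDR, TEK, CD93, ICAM2, LYVE1 and GJA5 were all under the count filter. BCL2, which blocks apoptosis, was at 40.0, 60.8 and 48.2 CPM against 6.14 and 9.10 CPM (6.52-fold). PDGFB, a growth factor of stromal cells, was the exception, with 39.7 and 31.6 CPM in TCC0840 and 0.116, 0.305 and 1.40 CPM in TCC1506. Over the whole list of growth factors and PI3K-AKT and RAS signalling, 6 of 18 tested members were called higher in TCC1506 and 1 higher in TCC0840. The shares of all genes tested were 13.6% and 10.9%, and the median log2 fold change of the list was 0.81. SPRY2, an inhibitor of RAS signalling, was 8.23-fold higher in TCC1506 but lost its call without either library of TCC0840 (adjusted p of up to 0.035).

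Genes of Wnt, Notch, Hippo and TGF-beta signalling had 2 of 18 tested members called higher in each line, close to the 13.6% and 10.9% of all genes tested, with a median log2 fold change of 0.00. WNT5B, a Wnt ligand, was at 23.2, 26.8 and 94.0 CPM in TCC1506 and had 3 counts in each library of TCC0840. LEF1, a transcription factor of the Wnt pathway, had 45 and 117 counts in TCC0840 and 2, 3 and 1 in TCC1506. YAP1, the effector of Hippo signalling, was 2.25-fold higher in TCC1506 (407, 356 and 320.3 CPM against 166 and 155 CPM), and POFUT1, which fucosylates Notch, 2.18-fold higher in TCC0840 (229.7 and 225 CPM against 134, 84.5 and 93.8 CPM). YAP1 lost its call in 2 and POFUT1 in 4 of the 5 fits without 1 library, with an adjusted p of up to 0.034 and 0.042.

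Of 16 tested genes of cytokines and their signalling, 6 were called higher in TCC1506 and 1 higher in TCC0840. The shares of all genes tested were 13.6% and 10.9%, and the median log2 fold change of the list was 0.93. IL20RB, TMEM173 and IL11 passed the count filter through TCC1506 alone, so that their direction follows in part from the filter. IL20RB, a receptor chain for IL-20 family cytokines, was at 89.1, 31.6 and 30.1 CPM in TCC1506, with replicate 1 above the others, and had 4 counts in each library of TCC0840. It was not called in the fit with all 22 cell line libraries (adjusted p = 0.037). IL22RA1, the receptor of IL-22 on epithelia, was at 31.7, 18.8 and 25.9 CPM against 1.82 and 3.95 CPM. TMEM173, the innate sensor adaptor STING, had 41, 72 and 83 counts in TCC1506 and 0 in TCC0840. IL11 had 17, 55 and 75 counts against 3 and 1, and its call was lost in 3 of the 5 fits without 1 library (adjusted p of up to 0.048). STAT6, which signals for IL-4 and IL-13, was 2.36-fold higher in TCC0840, but not past the threshold without either library of that line (adjusted p of up to 0.014). ICAM1, an adhesion molecule, was at 181, 398 and 289 CPM against 127 and 68.8 CPM and missed the call (adjusted p = 0.012), which it passed without replicate 1 of TCC1506 (adjusted p = 0.0015). STAT3 was at 137, 135 and 154 CPM against 117 and 75.4 CPM (adjusted p = 0.098), and IL6 had 0 counts in all 5 libraries.

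Of the cell cycle genes, 18 of 20 were not called, where 24.5% of all genes tested were called. None of 20 was called higher in TCC1506 by edgeR or DESeq2, with 3 at an unadjusted p under 0.05, and 2 were called higher in TCC0840. The median log2 fold change was 0.06. The 2 were the kinase VRK1, at 75.8 and 88.7 CPM against 25.0, 34.9 and 37.4 CPM, and the condensin subunit NCAPH2, at 155 and 143 CPM against 75.1, 52.4 and 61.9 CPM. Both lost their call without either library of TCC0840 (adjusted p of up to 0.028 and 0.022), and VRK1 also with all 22 cell line libraries (adjusted p = 0.066). AURKA, a mitotic kinase, was at 64.7, 52.3 and 71.9 CPM against 23.7 and 43.2 CPM (adjusted p = 0.038). CCND1, the cyclin of the G1 phase, overlapped between the lines, at 50.1, 84.4 and 128 CPM against 148 and 99.3 CPM, and CDKN1A, the inhibitor p21, was at 101, 156 and 178 CPM against 92.5 and 78.2 CPM (adjusted p = 0.053).

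Among 22 tested developmental transcription factors, 4 were called higher in TCC1506 and 2 higher in TCC0840, a share near the 24.5% of all genes tested, with a median log2 fold change of 0.38. BCL11A, a zinc finger repressor, was at 31.4, 21.6 and 37.0 CPM in TCC1506 and had 0 counts in TCC0840, at least 352-fold higher against the floor. HOXC6, a homeobox gene, was at 2.68, 1.83 and 1.51 CPM against 0.188 and 0.416 CPM, and lost its call in 3 of the 5 fits without 1 library (adjusted p of up to 0.053). SHOX2 (3.01 and 8.58 CPM against 0.116, 0.305 and 0.279 CPM) and MEIS2 (44.9 and 39.4 CPM against 7.57, 17.7 and 12.2 CPM), both homeobox genes, were higher in TCC0840, MEIS2 not without either library of that line (adjusted p of up to 0.034).

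Of 10 tested genes of drug transport and detoxification, 6 were called higher in TCC1506 and 1 higher in TCC0840. The shares of all genes tested were 13.6% and 10.9%, and the median log2 fold change of the list was 1.21. PTGS1 passed the count filter through TCC1506 alone, so that its direction follows in part from the filter. PTGS1, the cyclooxygenase COX-1, was at 31.9, 35.2 and 30.6 CPM with 0 and 2 counts in TCC0840 (ratio of summed counts 572, 95% exact interval 158 to 4727). ABCB8, a mitochondrial ABC transporter, was at 183, 121 and 119 CPM against 22.4 and 22.3 CPM (6.31-fold). SLC29A1, the nucleoside transporter ENT1, was at 12735, 14669.9 and 11156 CPM against 3370.0 and 2578 CPM. Its value is uncertain, since the next gene in the RefSeq order of the dog assembly UU_Cfam_GSD_1.0 is HSP90AB1, and whether reads of that gene were counted for it was not tested. ALDH3B1, an aldehyde dehydrogenase, was 8.83-fold higher in TCC0840, at 50.5 and 91.9 CPM against 12.6, 5.79 and 5.75 CPM. The drug efflux pump ABCC1 was at 104, 48.1 and 79.5 CPM against 33.7 and 43.6 CPM and was not called (adjusted p = 0.039), except without replicate 2 of TCC1506 (adjusted p = 0.0092). GSTP1, which conjugates glutathione, overlapped at 214, 186 and 253 CPM against 134 and 190.5 CPM.

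Of the X-linked genes that often escape X inactivation, KDM6A, KDM5C, EIF2S3 and SMC1A, none was called by edgeR or DESeq2, and 0 had an unadjusted p under 0.05, with a median log2 fold change of 0.40 in the female line over the male one. KDM5C, a histone demethylase, was at 111, 109 and 112 CPM against 89.3 and 78.2 CPM.

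Further large differences lay outside these lists. GM2A, the activator protein of ganglioside breakdown, was nearly even across TCC1506 at 279, 303 and 317 CPM and was at 0.313 and 0.884 CPM in TCC0840 (log2 fold change 8.91 ± 0.44 SE, adjusted p = 5.2e-06). CCDC80, a matrix-associated protein, was at 18.5, 24.7 and 52.9 CPM with 0 and 1 counts in TCC0840. SLIT2, a guidance ligand of ROBO receptors, was at 226 and 273 CPM in TCC0840 and at 1.40, 1.28 and 1.12 CPM in TCC1506, 198-fold higher (log2 fold change -7.62 ± 0.26 SE, adjusted p = 2.6e-06). SLC2A10, a facilitative glucose transporter, had 0 counts in all libraries of TCC1506 and 64.7 and 50.1 CPM in TCC0840, at least 984-fold higher against the floor. The vasopressin V2 receptor AVPR2 had 999 and 1365 counts in TCC0840 and 1, 0 and 2 in TCC1506, and GABRA3, a subunit of GABA-A receptors, had 214 and 339 against 1, 0 and 0. CMBL (176 and 394 counts against 0, 1 and 1), GLDN (113 and 127 against 0 in each) and FRMD3 (99 and 136 against 2, 0 and 0) completed the 10 strongest named genes of TCC0840.

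The 2 largest differences in each direction among genes without a symbol were as follows. ENSCAFG00000007595 was at 7645, 10636 and 12674 CPM in TCC1506 and had 1 and 4 counts in TCC0840, and ENSCAFG00000007209 was at 932, 1635 and 3479 CPM with 0 and 1 counts. In the other direction, ENSCAFG00000022843 had 1987 and 2952 counts in TCC0840 and 0, 0 and 1 in TCC1506, and ENSCAFG00000001148 had 3320 and 3776 counts against 0, 0 and 5.

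The libraries of TCC1506 varied more than those of TCC0840 where replicate 1 was involved. On log2(CPM + 1), 7.70% of the genes tested differed at least 2-fold between replicates 1 and 2 of TCC1506 and 6.18% between replicates 1 and 3, but 3.07% between replicates 2 and 3. The replicates of TCC0840 differed in 3.44%. Between the lines the share was from 29.3% to 33.8%. In the other 6 cell lines, 16 pairs of replicates ranged from 0.633% to 13.8% with a median of 5.86%, calculated with factors over all 31 libraries. Replicate 1, which was grown to passage 98, was at least 2-fold above both other replicates of TCC1506 in 177 genes and below both in 232. Replicate 3 was above in 137 genes and below in 8, and replicate 2 above in 23 and below in 94. Sample numbers recur among the libraries, and by their order replicate 3 may be the only library of the 5 in another series of numbers. The labels name no such series, and passage and a series cannot be told apart from the replicate.

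**Figure D4:**
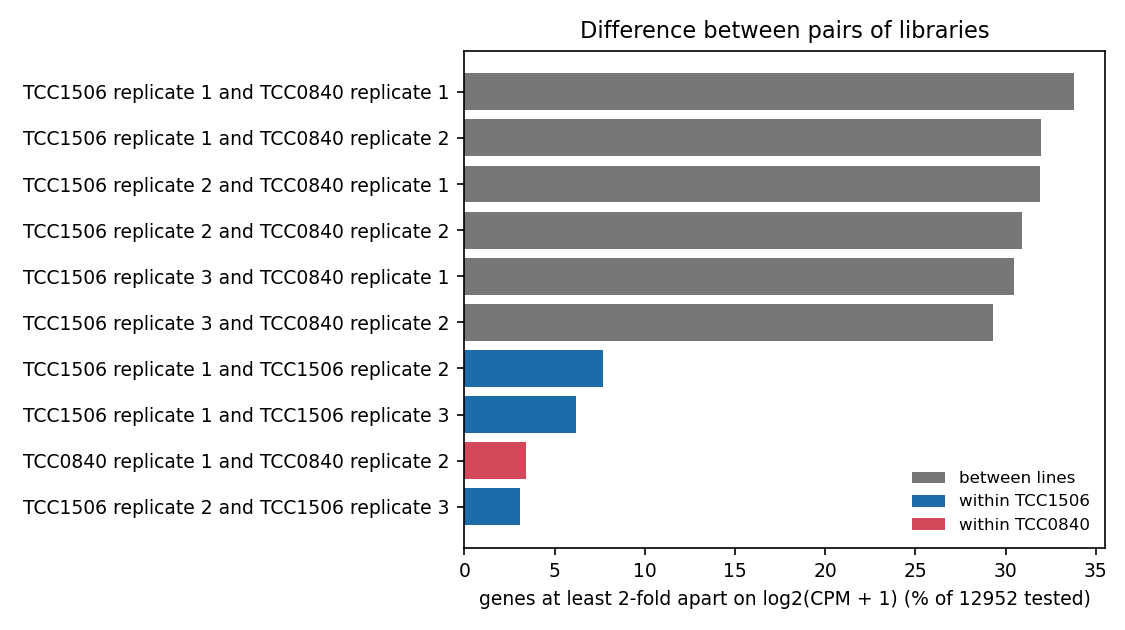
Bars give, for each pair of the 5 libraries, the percentage of the 12952 genes tested that differed at least 2-fold on log2(CPM + 1). Pairs between the lines (grey) are between 29.3% and 33.8%, and pairs within a line (blue for TCC1506, red for TCC0840) between 3.07% and 7.70%.

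The most variable named genes of TCC1506 were not called between the lines, apart from PDGFB. SH2D5, an adaptor protein, was at 4.31, 36.3 and 48.8 CPM against 4.58 and 1.61 CPM (adjusted p = 0.021), and without replicate 1 of TCC1506 it passed (adjusted p = 0.00014). TMEM47, a membrane protein of cell junctions, had 1, 10 and 17 counts in TCC1506 and 72 and 41 in TCC0840 (adjusted p = 0.020). GART, an enzyme of purine synthesis, was listed at 149, 0 and 170 counts in TCC1506 and at 322 and 121 in TCC0840, and was at 0 in some libraries of TCC1509 and of the prostate carcinoma lines too. As groups, collagens spread most in TCC1506, with a median ratio of 4.27 between the highest and the lowest library over the 7 tested members, against 1.47 over all genes tested. Cell cycle genes had a ratio of 1.59, and 13 of 20 were highest in replicate 1, against 37.5% of all genes tested. Junction genes had a ratio of 1.39.

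**Figure D5:**
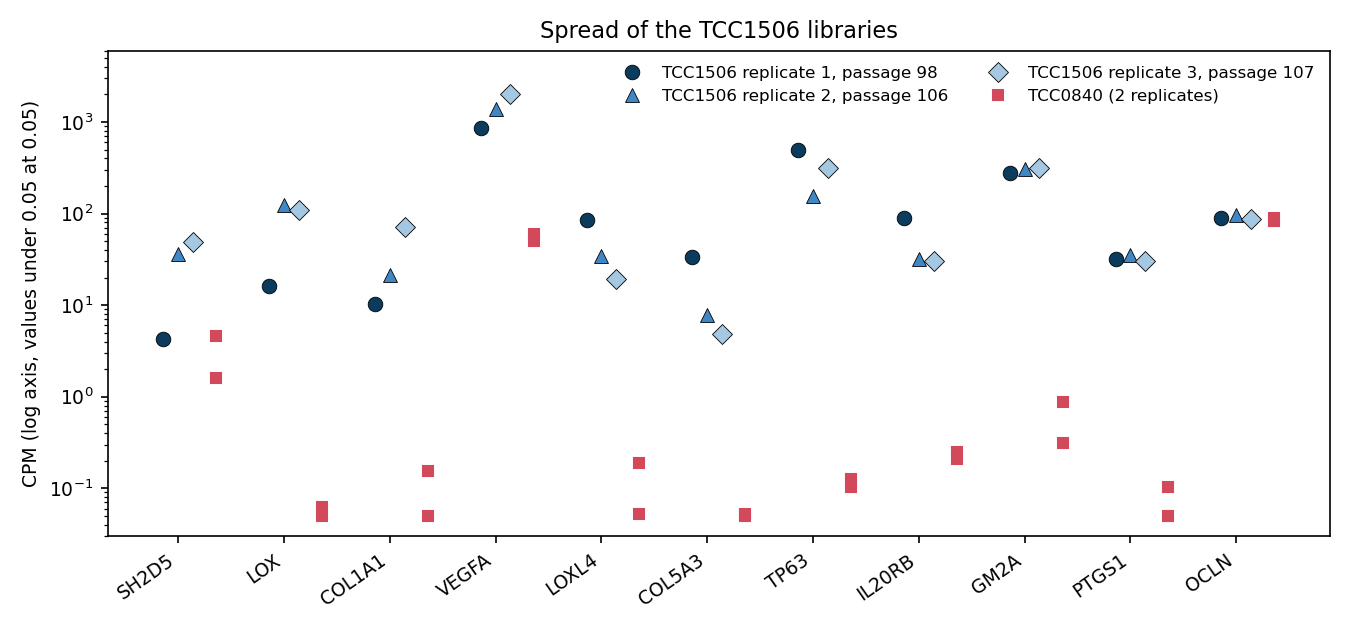
CPM on a log axis for 11 named genes, with blue symbols for replicates 1 to 3 of TCC1506 at passages 98, 106 and 107 and red squares for the 2 replicates of TCC0840. SH2D5 and LOX are lowest in replicate 1, COL5A3, LOXL4 and IL20RB highest in it, and GM2A, PTGS1 and OCLN nearly even.

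The bladder tumor B7, from which TCC1506 was established, was set beside 4 other primary TCC tissues, P6.1, B8, B9 and B10, with 1 library each and no test. CPM for this were scaled over all 31 libraries, and in whole tissue fewer cells of a type and less RNA per cell cannot be told apart. The study describes B7 as made up of tumor cells nearly alone. Whether the other tissues held more cells of other types was not tested. B7 was the highest of the 5 tissues for 34.2% of the genes called higher in TCC1506 and for 6.14% of those called higher in TCC0840, against 25.1% of all genes tested. It was the lowest for 19.7% and 55.5% of them, against 28.5% of all. TP63 was at 172 CPM in B7 and between 11.5 and 60.1 CPM in the other tissues, and MUC13 at 539.5 CPM against 9.05 to 136 CPM. CDH3 was at 737 CPM against 10.3 to 299 CPM, and SULF1 at 601 CPM against 3.85 to 78.3 CPM. PGR, at 8.67 CPM against 0.570 to 3.44 CPM, and BCL11A, at 14.7 CPM against 0.516 to 3.32 CPM, were also highest in B7. SLIT2 was at 0.867 CPM in B7 and at 66.3 CPM or more in the others, and TMPRSS2 at 8.86 CPM against 479 CPM or more. CD74 was at 107 CPM against 1339 CPM or more, and DLA-DRA at 36.1 CPM against 466 CPM or more. SLC2A10 stood apart from these, since it was at 47.3 CPM in B7 and had 0 counts in the line.

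The other lines were compared by level only. The highest value of TP63 in TCC1509 and the 5 prostate carcinoma derived lines was 0.106 CPM, that of BCL11A 0.170 CPM and that of MUC13 1.00 CPM, and PGR was at 0 in all of them. SNAI2, at 105 to 126 CPM, and SULF1, at 217 to 458 CPM, were high in TCC1509 too. For TCC0840, PSCA was at most 1.64 CPM in the other lines, whereas AVPR2 reached 148 CPM in a prostate carcinoma derived line.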

How the data were processed

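Total RNA of cell pellets was sequenced on 4 lanes per library. According to the submitters' processing notes and the methods, the authors used Trimmomatic 0.36 for trimming, STAR 2.5.3 for alignment to the dog genome CanFam3.1, and RSEM 1.3.0 for quantification of Ensembl genes. The authors deposited expected counts per lane without normalization, with 17.5% of nonzero values fractional, and TPM (corrected for length and library total). Expected counts were summed over lanes and rounded. Between 15848441 and 19231681 counts per library set a floor of 3 counts at 0.156 to 0.188 CPM, and floors and intervals cover counting error only.

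Genes with at least 10 counts in all libraries of either line were tested with edgeR 4.0.16 (TMM, quasi-likelihood F test, Benjamini-Hochberg adjustment over all genes tested, R 4.3.3). The SE is the log2 fold change divided by the square root of F. Folds are ratios of mean CPM, or of summed counts where an interval is given. Where a line had 0 counts, the floor over its libraries was 0.0583 CPM in TCC1506 and 0.0852 CPM in TCC0840. In simulated counts of these 12952 genes, the test recovered 100% of 200 genes changed 4-fold at a biological coefficient of variation of 0.1, 99% at 0.2 and 23.5% at 0.4. False calls numbered 0, 4 and 0. The common dispersion of the data, the square of that coefficient, was 0.0676 over both lines and 0.0746 within TCC1506. That lies between the settings of 0.2 and 0.4, so that recovery in the data is not fixed by these values.

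Symbols came from the text and supplement of the study and name 1120 of 32183 identifiers. Many of them were chosen by the study for a relation with drug resistance over these same lines, so the lists are no independent evidence of direction. The lists and the comparison were chosen with earlier results of these data known. Named genes are the 10 largest called ratios in each direction, up to 4 called members per list and direction, 25 genes taken from the study or the lists, the 5 most variable in TCC1506 and 2 without a symbol in each direction. Some named genes are not reported here. COL4A1 and the list members given to show markers or zeros were added after their values were seen.

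Alternatives were DESeq2 1.42.0, other normalizations, filters, thresholds, samples and blocks, limma 3.58.1 on log2(TPM + 1), and each library left out. Python 3.11.15 was used for tables. No genome was at hand, and sequences and coordinates are not given.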

Additional observations from a re-analysis of the deposited data

How the results depend on the processing

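Called genes numbered between 2635 and 4224 under every alternative except a fold of at least 4 (1952, with 770 higher in TCC0840) and the fits without 1 library of TCC0840. Without 1 library they ranged from 1444 to 3387, with 755 to 1925 higher in TCC1506 and 646 to 1462 higher in TCC0840. In the fits without a library of TCC0840, the lone library is assumed to vary like the others. The fits without TCC1506 replicates 1, 2 and 3 gave 3387, 2635 and 2696. By the order of sample numbers the last of these may lie within 1 series, which the labels do not name. DESeq2 called 3716 and limma on TPM 2756. No gene called in the main analysis changed sign in any of the 16 alternatives, and 47 of 72 called named genes passed in all of them.

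Whether replicate numbers of both lines mark pairs cannot be told from these libraries. Deviations of same-numbered libraries from the line mean correlated at -0.126 and -0.192 by source names and at 0.192 and 0.0419 by titles. With 2 libraries, the deviations of TCC0840 mirror each other, so that each correlation recurs with the opposite sign. A replicate block called 2672 genes by source names and 3952 by titles. Under the block by source names, LAMA3, JUP, YAP1, POFUT1 and SLC29A1 were not called and the Wnt list had 2 calls. The block by titles gave 10 developmental factors.

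Calls per list moved as follows. The Wnt, Notch, Hippo and TGF-beta list had 7 with an adjusted p of at most 0.05, 7 with all 22 cell line libraries, 7 without a filter and 2 at 4-fold. Developmental factors had 10 without a filter. Cell cycle genes had 1 with all 22 libraries and 0 at 4-fold, junction genes 3 at 4-fold, and hormone receptors 1 with filterByExpr and 1 with limma.

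Without 1 library, calls ranged from 2 to 5 for that Wnt list and for collagens, 0 to 2 for cell cycle genes, 3 to 5 for junction genes, 4 to 8 for cytokines and for growth factors, 1 to 3 for hormone receptors and 7 to 18 for other matrix genes.

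EGFR turned to -0.052 without TCC1506 replicate 1 (range without 1 library -0.052 to 0.45) and to -0.033 and -0.13 under the blocks by source names and by titles, and TRIM36 to -0.12 without that replicate (range -0.12 to 0.41) and -0.11 under the block by titles (log2 fold changes, not called). At 4-fold, 0.664%, 0.764% and 0.263% of the genes differed between replicates 1 and 2, 1 and 3, and 2 and 3 of TCC1506, and 0.124% between those of TCC0840. Without TMM factors, B7 was the highest tissue for 37.7% of the genes higher in TCC1506, 7.70% of those higher in TCC0840 and 27.9% of all, and the lowest for 25.7% of all. The cause of these changes was not tested.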
